A study of Mus musculus with 8 samples.

Results

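The genes described here encode the 5 subunits of the transcription factor NF-κB (Nfkb1, Nfkb2, Rela, Rel and Relb) and 5 IκB proteins that bind them (Nfkbia, Nfkbib, Nfkbie, Nfkbiz and Bcl3). They were taken by symbol, and all 10 were found among the 21080 gene symbols measured. RNA-seq was performed on bone marrow-derived macrophages (BMDMs, bone marrow cells differentiated to macrophages in culture) of C57BL/6 mice. Nudt21-cKO BMDMs came from Nudt21 fl/fl LysM Cre mice, in which the lysozyme M promoter drives Cre in myeloid cells, and WT BMDMs from sex-matched littermates that carry LysM-Cre too, so that both genotypes had the Cre. The ages of these mice are not given in the sources used here. The 0 h groups were untreated according to their titles, and the 4 h groups received IFNγ at 50 ng/ml overnight and then LPS at 50 ng/ml for 4 h. Each of the 4 groups (WT and cKO at 0 h, WT and cKO at 4 h) comprised 2 samples, in each of which the cells of 2 mice were pooled. The value of a gene in a sample was its mean read coverage per base, so that levels of different genes are already per length. Where the transcript end of a gene differs between the genotypes, such a mean may differ too, which was not tested.

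NF-κB subunits work as pairs. Rela, Rel and Relb carry the domain that activates transcription, whereas Nfkb1 and Nfkb2 are made as the precursors p105 and p100, whose C-terminal part resembles an IκB and which are processed to the DNA-binding proteins p50 and p52. The cytoplasmic inhibitors IκBα (Nfkbia), IκBβ (Nfkbib) and IκBε (Nfkbie) hold the pairs outside the nucleus until IκB kinase marks them for destruction, for example after LPS binds Toll-like receptor 4. The atypical proteins IκBζ (Nfkbiz) and Bcl-3 (Bcl3) act in the nucleus on pairs already bound to DNA. Several of these genes are textbook targets of NF-κB itself, which gives the pathway its negative feedback. Nudt21 encodes the subunit of cleavage factor Im that binds UGUA in nascent transcripts and takes part in the choice of the polyadenylation site.

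Because all 10 genes rose together with stimulation, their promoters were searched for the κB site that NF-κB pairs bind. The promoter windows, from RefSeq on GRCm38.p6, ran from 250 bases before to 50 bases after an annotated start. The table held 7 of the 10 genes, with 9 windows, and Nfkb1, Relb and Nfkbiz were not among them. The kappa B consensus of 10 letters was matched on both strands, overlapping matches included. It was found in 5 of the 7 genes (Bcl3, Rel, Nfkbia, Nfkbie and Nfkb2), compared with 9.6% of the 27025 genes in the table and 8.5% of its 32851 windows. Rela and Nfkbib held no match in these windows, which says only that the letters are not there. The sequences below show 1 match for each gene and 2 for Nfkb2, whose matches lie at different starts. They are written 5′ to 3′ on the strand of the gene with the match in capitals, and in Nfkbia the capitals are the reverse complement of the consensus.
Nfkbia: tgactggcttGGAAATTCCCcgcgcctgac
Nfkbie: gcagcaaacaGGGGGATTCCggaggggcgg
Bcl3: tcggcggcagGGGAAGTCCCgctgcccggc
Rel: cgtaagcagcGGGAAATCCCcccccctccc
Nfkb2, first start: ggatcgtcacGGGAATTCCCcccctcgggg
Nfkb2, second start: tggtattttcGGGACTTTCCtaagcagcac
The Nfkbia window is chr12:55492657-55492686 on the minus strand and its match begins at position -29 from the start site. The Nfkbie window is chr17:45555584-45555613 on the plus strand, with the match from -106. The Bcl3 window, chr7:19822734-19822763 on the minus strand, has its match just after the start, from position 3. The Rel window is chr11:23771042-23771071 on the minus strand, with the match from -92. The Nfkb2 windows, on the plus strand, are chr19:46304688-46304717, with the match from -39, and chr19:46305695-46305724, with the match from position 11. These matches describe letters in the genome and were not read as bound sites.

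The total coverage of a sample ranged from 14950347 to 17954882 (mean reads per base, summed over genes), and 14737 to 16486 symbols had a value over 0. Nudt21 itself had coverages of 718 and 641 in WT against 158 and 172 in cKO at 0 h, and 547 and 575 in WT against 142 and 115 in cKO at 4 h, so the labels of the genotypes held in every sample. On the deposited scale the median log2 change of all genes from 0 h to 4 h was -1.24 in WT and -1.03 in cKO. The shift was -1.97 in WT for the 5499 least covered of the genes tested and -0.33 for the 2237 best covered. In the comparisons below each sample was divided by a median-ratio factor over the 16284 genes whose mean coverage reached 0.5, all 10 members included. Such a factor does not follow a shift that differs with coverage. For well covered genes such as these, that factor gives a larger 4 h to 0 h change than dividing by total coverage does, and both are printed. All 8 macrophage markers were detected, with a summed scaled coverage of 83200 to 113600 in every sample. The 6 neutrophil markers summed to 15690 to 21520 at 0 h and 28190 to 32420 at 4 h, while Ly6g was at or near 0 (group means up to 4.64). Of the 4 dendritic cell markers, which summed to 6.8 to 8.07 at 0 h, 2138 to 2941 in WT at 4 h and 1345 to 1387 in cKO at 4 h, Flt3 stayed at or below 2.69 and Clec9a made up most of the sum at 4 h. The 4 T cell markers summed to 17.4 to 142 and were mostly Cd4, with Cd3e, Cd3d and Cd3g at or near 0. The 3 B cell and the 3 erythroid markers summed to at most 2.94 and 7.44, the 3 fibroblast markers to 25.4 to 142, and the 2 mast cell and basophil markers to 2.35 to 14.4. The part of these other markers in the results was not tested.

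Stimulation raised every member in both genotypes. The largest increases were those of the nuclear IκB gene Nfkbiz and the cytoplasmic inhibitors Nfkbie and Nfkbia, and the smallest those of Rela and Relb. By limma with Benjamini-Hochberg adjustment over all 16284 genes, 10 of the 10 genes were called higher in WT and 10 of the 10 in cKO, beside 31.6% of all genes in WT and 30.5% in cKO. The median log2 fold change of the 10 was 4.05 in WT and 4.33 in cKO, against -0.06 and -0.05 for all genes. With equal total coverage the medians were 2.90 and 3.29, against -1.19 and -1.07 for all genes. Both 4 h samples lay above both 0 h samples for all 10 genes, in each genotype and also on the deposited scale, where this held for 16.4% of all genes in WT and 19.2% in cKO.

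**Figure D1:**
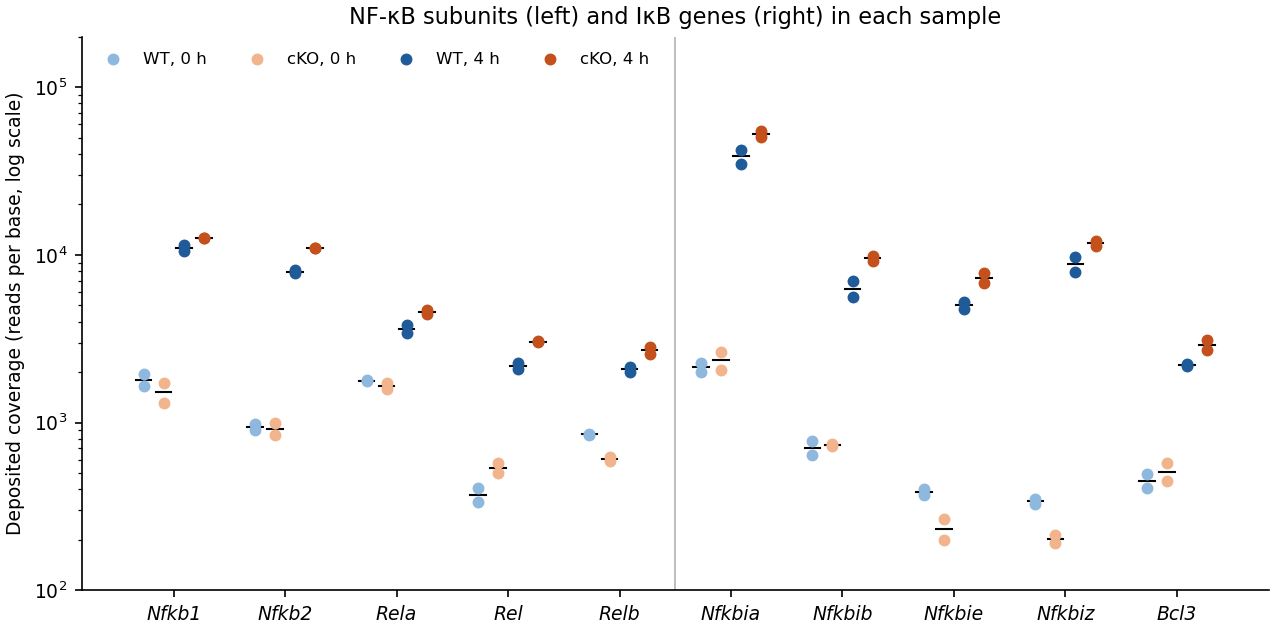
Deposited coverage (reads per base, log axis) of the 5 NF-κB subunits and the 5 IκB genes in each of the 8 samples. Points are samples and bars the means of 2 samples. Every 4 h point lies above every 0 h point of the same gene. At 0 h both cKO points of Rela, Relb, Nfkbie and Nfkbiz lie below both WT points, and both of Rel above.

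Among the subunits, Nfkb1 (chromosome 3, 135584655 to 135691547, minus strand), the source of p105 and p50, had coverages of 1951 and 1647 in WT against 1302 and 1720 in cKO at 0 h, and 11474 and 10601 in WT against 12608 and 12539 in cKO at 4 h. Its log2 fold change with stimulation was 3.82 in WT (standard error 0.17) and 4.07 in cKO (standard error 0.17), and with equal total coverage 2.67 and 3.03. Nfkb2 (chromosome 19, 46304320 to 46312385, plus strand), the source of p100 and p52 in the non-canonical branch of the pathway, went from 903 and 986 in WT against 845 and 993 in cKO to 8084 and 7744 in WT against 11025 and 10915 in cKO. It had the largest stimulation log2 fold change of the 5 subunits, 4.27 in WT and 4.58 in cKO (standard error 0.13 each, 3.12 and 3.54 with equal total coverage). On the opposite strand, Nfkb2 exons share 531 bases with AC114539.1, which was not among the symbols measured, and 299 bases with Psd. Psd had coverages of 162 and 178 in WT against 19.7 and 15.7 in cKO at 0 h. At 4 h Psd had 273 and 279 in WT against 228 and 215 in cKO. The part of these reads in the Nfkb2 values was not tested.

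The 3 activating subunits differed widely in their response. Rela (chromosome 19, 5637483 to 5648130, plus strand), which encodes p65, the partner of p50 in the classical dimer, had coverages of 1781 and 1762 in WT against 1579 and 1712 in cKO at 0 h, and 3793 and 3408 in WT against 4420 and 4710 in cKO at 4 h. It changed least of the 10, by a log2 fold change of 2.22 in WT and 2.47 in cKO (standard error 0.14 each), or 1.07 and 1.43 with equal total coverage, a fold of 2.1 and 2.7. Rel (chromosome 11, 23736847 to 23770970, minus strand), which encodes c-Rel, went from 337 and 405 in WT against 501 and 570 in cKO to 2252 and 2099 in WT against 3027 and 3052 in cKO. Rel was the only one of the 10 whose log2 fold change with stimulation was larger in WT (3.76, standard error 0.15) than in cKO (3.51, standard error 0.15), a difference of -0.25 that did not pass the test (adjusted p = 0.541, limma with Benjamini-Hochberg adjustment). Relb (chromosome 7, 19606217 to 19629438, minus strand), the partner of p52, went from 848 and 855 in WT against 588 and 623 in cKO to 2142 and 2006 in WT against 2566 and 2838 in cKO. Its log2 fold change was 2.49 in WT and 3.15 in cKO (standard error 0.13 each, 1.33 and 2.12 with equal total coverage).

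Among the cytoplasmic inhibitors, Nfkbia (chromosome 12, 55489410 to 55492647, minus strand), the inducible inhibitor of the fast feedback loop, was the most covered of the 10 genes in all 4 groups. Its coverages were 2253 and 2015 in WT against 2071 and 2631 in cKO at 0 h, and 42483 and 34979 in WT against 50417 and 55078 in cKO at 4 h. Its log2 fold change was 5.38 in WT and 5.50 in cKO (standard error 0.20 each), or 4.23 and 4.46 with equal total coverage. Nfkbib (chromosome 7, 28758251 to 28767512, minus strand) went from 780 and 639 in WT against 747 and 729 in cKO to 6950 and 5576 in WT against 9189 and 9869 in cKO, with log2 fold changes of 4.34 and 4.69 (standard error 0.21 each, 3.19 and 3.65 with equal total coverage). Exons of Nfkbib share 42 bases with Sirt2 and 314 bases with Ccer2 on the opposite strand, and Sirt2 had coverages of 1228 to 3097. Nfkbie (chromosome 17, 45555703 to 45563169, plus strand) went from 369 and 404 in WT against 199 and 265 in cKO to 5267 and 4766 in WT against 6797 and 7744 in cKO. Its log2 fold change was 4.90 in WT and 5.98 in cKO (standard error 0.18 each, 3.75 and 4.94 with equal total coverage).

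The 2 nuclear IκB genes lay far apart. Nfkbiz (chromosome 16, 55811375 to 55838899, minus strand), a coactivator of secondary response genes in LPS-treated macrophages, had the lowest mean of the 10 at 0 h, with coverages of 350 and 326 in WT against 191 and 213 in cKO, and reached 9723 and 7913 in WT against 11240 and 12141 in cKO at 4 h. Its log2 fold change was the largest of the 10 in both genotypes, 5.90 in WT (adjusted p = 2.46e-05) and 6.85 in cKO (adjusted p = 1.79e-05, both limma with Benjamini-Hochberg adjustment, standard error 0.18 each). With equal total coverage these were 4.75 and 5.82, a fold of 26.9 and 56.4. Bcl3 (chromosome 7, 19808462 to 19822770, minus strand), which binds p50 and p52 dimers, went from 492 and 409 in WT against 446 and 574 in cKO to 2219 and 2169 in WT against 3108 and 2714 in cKO. Its log2 fold changes of 3.49 in WT and 3.52 in cKO (standard error 0.17 each, 2.34 and 2.48 with equal total coverage) were nearly the same. An exon of Bcl3 shares 161 bases with the antisense gene Gm16175, whose coverage was at most 75.6. The remaining adjusted p-values of the 10 genes for stimulation lay between 1.88e-05 and 0.000158 in limma.

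**Figure D2:**
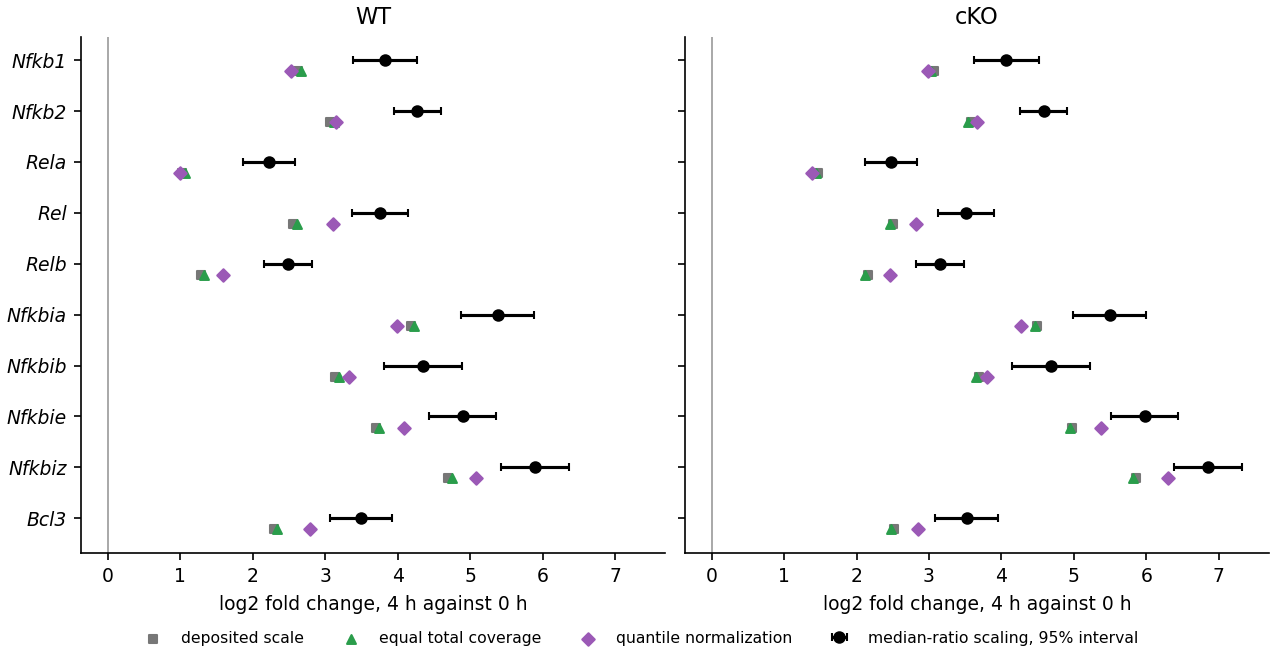
Log2 fold change of 4 h against 0 h for each gene in WT (left) and cKO (right). Black points with 95% confidence intervals are the values after median-ratio scaling, and the coloured symbols below them the values with other scalings of the samples. Every value is above 0, and the unscaled, equal-total and quantile-normalized values lie below the median-ratio ones.

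The order of the members changed with stimulation. In WT at 0 h the levels on the scaled coverage ran from Nfkbia (mean 1506) through Nfkb1 (1269) and Rela (1250) to Nfkbie (273), Rel (262) and Nfkbiz (238). Nfkb1 and Rela were not separated by their samples, nor were Nfkbie and Rel or Rel and Nfkbiz. In cKO at 0 h Nfkbia (1522) was again first and Nfkb2 ranked 4 of 10, with Rela (1069) and Nfkb1 (978) between them without separation, while Nfkbie (150) and Nfkbiz (131) stood apart below Bcl3 (330), with both samples of each below those of the gene before it. At 4 h Nfkbiz came directly after Nfkbia and Nfkb1 in both genotypes, and Rela ranked 7 of 10. In WT the genes from Nfkb1 to Nfkbie overlapped with their neighbours in that order, and so did Bcl3, Rel and Relb. In cKO the first 7 were each separated from the next, and Rel, Bcl3 and Relb overlapped.

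Shares and ratios within a sample do not depend on how samples are scaled, and they are given as a description. Of the summed coverage of the 5 subunits, Rela took 30.6 and 31.2% in WT against 32.8 and 30.5% in cKO at 0 h. At 4 h Rela took 13.1 to 13.8% in the 4 samples. Nfkb1 and Nfkb2 took larger shares at 4 h, Nfkb2 going from 15.5 to 17.7% over the 0 h samples to 29.1 and 29.95% in WT against 32.8 and 32.1% in cKO at 4 h. Rel took 5.79 and 7.16% in WT against 10.4 and 10.2% in cKO at 0 h, and 8.12 and 8.12% in WT against 8.996 and 8.963% in cKO at 4 h. Relb took 14.6 and 15.1% in WT against 12.2 and 11.1% in cKO at 0 h. Both cKO samples were thus above both WT samples for Rel at each time, and below them for Relb at 0 h only. Among the IκB genes, Nfkbia took 53.1 and 53.1% in WT against 56.7 and 59.6% in cKO at 0 h, and 62.4 to 63.8% at 4 h. The share of Nfkbiz was 8.24 and 8.60% in WT against 5.23 and 4.82% in cKO at 0 h, and 13.9 to 14.6% at 4 h. The summed coverage of the 5 IκB genes was 0.729 and 0.671 times that of the 5 subunits in WT and 0.759 and 0.785 times in cKO at 0 h. At 4 h it was 2.40 and 2.14 times in WT and 2.40 and 2.57 times in cKO.

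**Figure D3:**
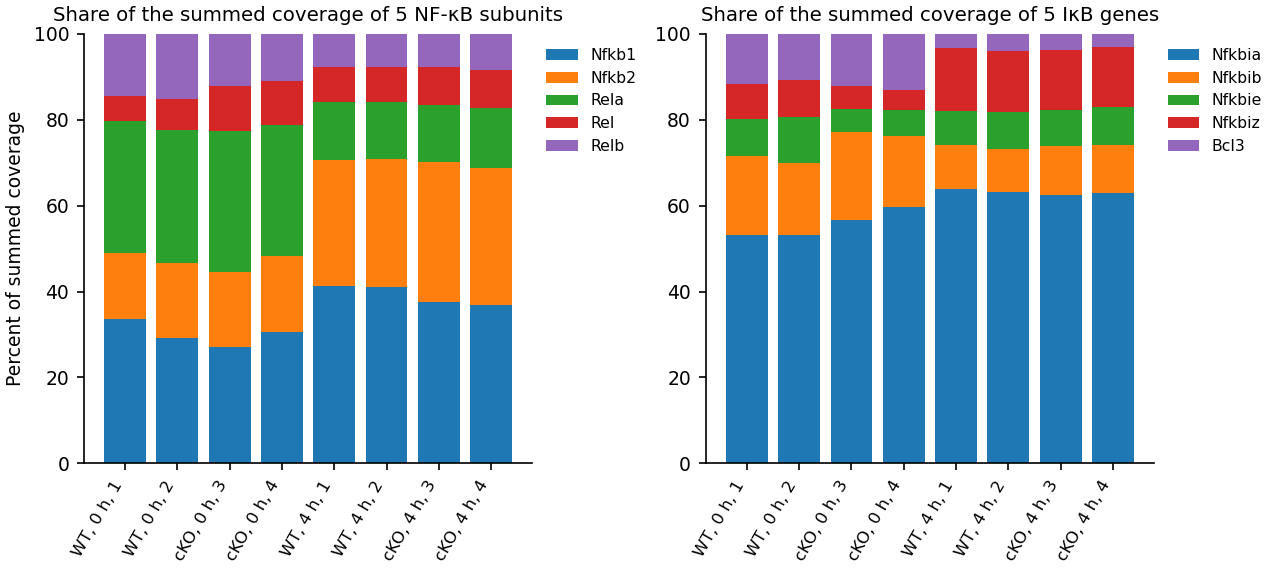
Share of each gene in the summed coverage of the 5 NF-κB subunits (left) and of the 5 IκB genes (right), in percent, with 1 bar for each sample. At 4 h Nfkb1 and Nfkb2 together make up most of the subunit coverage and Nfkbia 62.4 to 63.8% of the IκB coverage.

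The comparison of cKO with WT at 0 h asks whether the untreated cells already differ. Relb, Nfkbie and Nfkbiz were lower in both cKO samples than in either WT sample, and Rel was higher in both. With median-ratio scaling 0 of the 10 genes were called by limma with Benjamini-Hochberg adjustment over all genes. Of all genes, 2.87% were called higher and 2.55% lower. Other settings are given in the next paragraph. At an unadjusted p under 0.05, 3 were lower and 1 higher, beside 11.8% and 10.6% of all genes. By the rule used in the study, a fold change above 1.5 with an unadjusted p under 0.05, 3 of the 10 were lower, beside 6.48% of all genes, and 0 higher, beside 5.88%. On the scaled coverage, 6 of the 10 genes were lower in both cKO samples than in either WT sample, against 30.1% of all genes, and 1 was higher, against 26.8%.

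Between cKO and WT the log2 fold change was -0.87 for Nfkbie (95% interval -1.33 to -0.41, adjusted p = 0.0661), -0.86 for Nfkbiz (-1.33 to -0.39, adjusted p = 0.0692) and -0.61 for Relb (-0.94 to -0.28, adjusted p = 0.0696), all from limma with Benjamini-Hochberg adjustment. These are folds of 0.548, 0.55 and 0.655. The 3 genes passed an adjusted p of 0.05 with equal total coverage (0.0441, 0.0297 and 0.032 from limma), quantile normalization, a pseudocount of 1, an intensity trend and scaling on high-coverage genes, and did not pass on the deposited scale, without the coverage filter, with a minimum mean coverage of 1 or with the 0 h samples alone. Rel had a log2 fold change of 0.41 (0.03 to 0.80, adjusted p = 0.197 from limma). The other 6 genes ranged from -0.38 for Nfkb1 (-0.83 to 0.07) to 0.06 for Bcl3 (-0.37 to 0.48), and their intervals all include 0. Within the samples the ratio of Relb to Rel was 2.52 and 2.11 in WT against 1.17 and 1.09 in cKO. The ratio of Nfkbie to Nfkbia was 0.164 and 0.201 in WT against 0.0963 and 0.101 in cKO, and that of Nfkbiz to Nfkbia 0.155 and 0.162 in WT against 0.0922 and 0.0808 in cKO. The 2 samples of a genotype lay closer to each other than to the other genotype in each of these ratios. In bulk RNA, fewer cells of a type and less RNA per cell cannot be told apart. At 0 h the summed macrophage markers were 84990 to 91130 in WT and 83200 to 83490 in cKO (6 of the 8 had a lower and 2, Cd68 and Lyz2, a higher group mean in cKO), and the neutrophil markers 15690 to 17010 and 17380 to 21520, and their part in these differences was not tested. For 2 samples a group, the smallest p that an exact permutation test (two-sided) of such a ratio allows is 0.333.

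**Figure D4:**
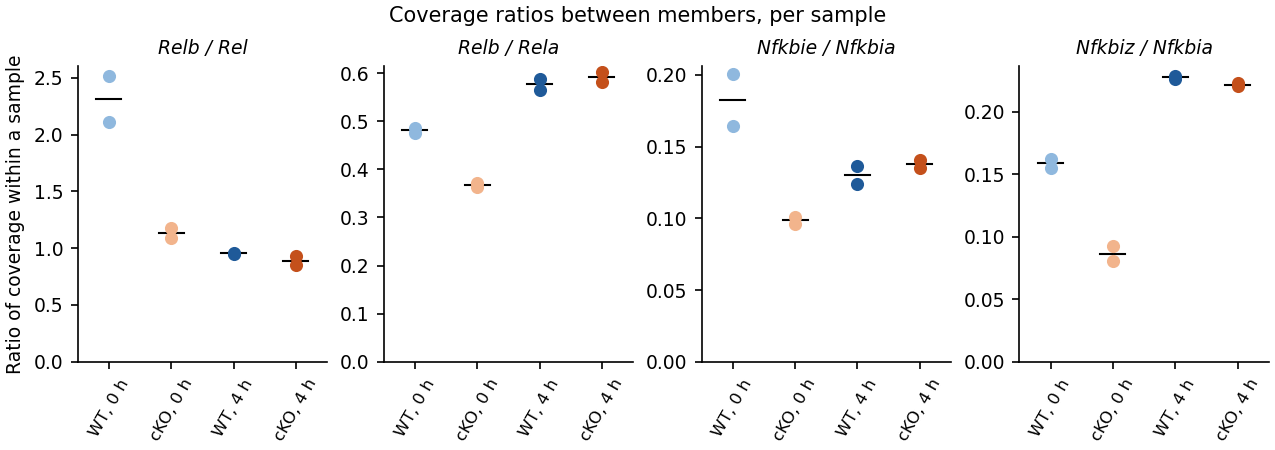
Ratio of the coverages of 2 members within each sample (linear axes from 0) for the 4 groups. Points are samples and bars the means of 2 samples. At 0 h the cKO samples lie below the WT samples in all 4 ratios, and at 4 h the Nfkbiz to Nfkbia ratio is 0.226 and 0.229 in WT against 0.220 and 0.223 in cKO.

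After stimulation for 4 h the genotypes were close. By limma with Benjamini-Hochberg adjustment 0 of the 10 genes were called, beside 8.82% of all genes called higher and 8.35% called lower, and 0 at an unadjusted p under 0.05, beside 16.5% higher and 17.2% lower. The log2 fold changes of cKO against WT ran from -0.13 for Nfkb1 (95% interval -0.58 to 0.31) to 0.29 for Nfkbib (-0.25 to 0.83). The intervals leave room for sizeable differences, up to 0.83 for Nfkbib, 0.67 for Nfkbie and 0.63 for Nfkbia, so that equal levels were not shown. For Relb, Nfkbie and Nfkbiz, the 3 genes past an unadjusted p of 0.05 with lower values in cKO at 0 h, the values at 4 h were 0.06 (-0.28 to 0.39), 0.21 (-0.25 to 0.67) and 0.09 (-0.38 to 0.56). On the deposited scale both cKO samples were above both WT samples for all 10 genes, where 47.3% of all genes did the same. Median-ratio scaling left this for Nfkb2 alone, where 28.5% of all genes did so, and equal total coverage for 9 of the 10 (33.7% of all genes), the exception being Nfkb1. On the deposited scale Nfkb2 passed the test, with a log2 fold change of 0.47 and an adjusted p of 0.0462 from limma, beside a median of 0.28 for all genes. The 2 WT samples at 4 h differed from each other by a median of 0.34 (log2) over the members and 0.21 over all 11907 well covered genes, the widest of the 4 groups after scaling.

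**Figure D5:**
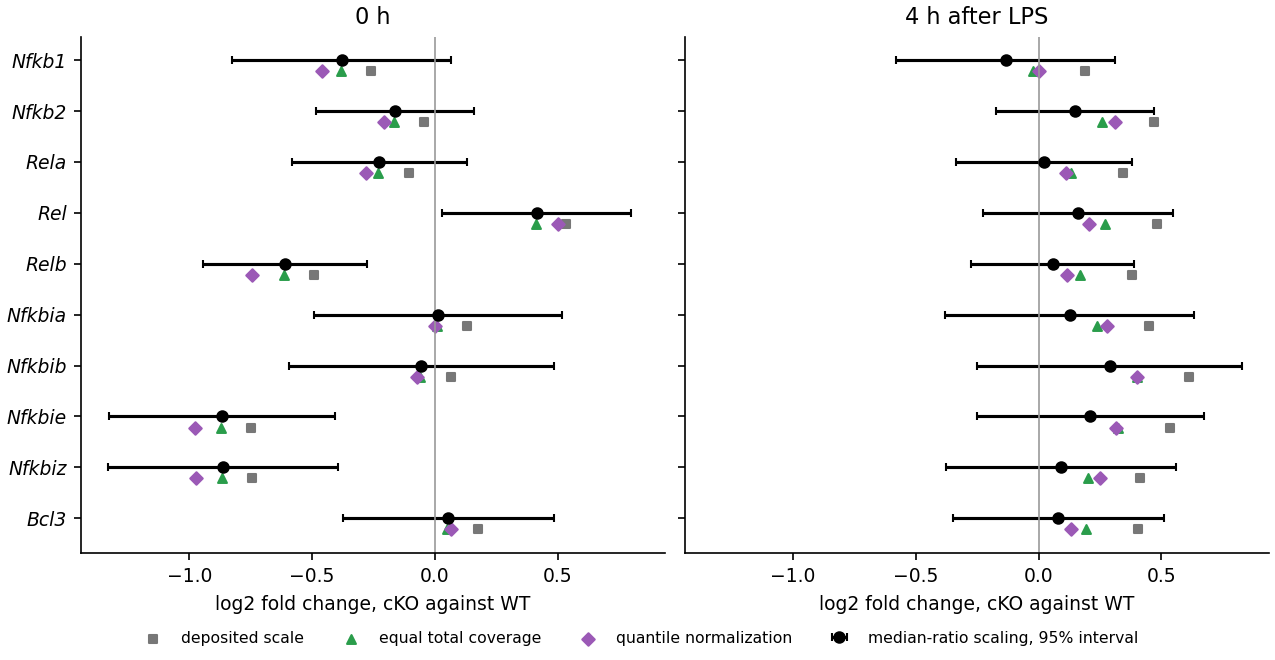
Log2 fold change of cKO against WT for each gene at 0 h (left) and at 4 h (right). Black points with 95% confidence intervals are the values after median-ratio scaling, and the coloured symbols the values with other scalings. At 0 h Relb, Nfkbie and Nfkbiz lie at -0.61 to -0.87 and Rel at 0.41, and at 4 h all 10 intervals include 0.

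The difference in genotype effect from 0 h to 4 h was tested with an interaction term over all 8 samples. Nfkbie had the largest difference, 1.08 on the log2 scale (95% interval 0.43 to 1.73, adjusted p = 0.103), followed by Nfkbiz with 0.95 (0.29 to 1.62, adjusted p = 0.128) and Relb with 0.67 (0.20 to 1.14, adjusted p = 0.131), all from limma with Benjamini-Hochberg adjustment. Each value is also the stimulation effect in cKO minus that in WT. After adjustment 0 of the 10 genes passed, beside 1.57% of all genes higher and 1.13% lower. At an unadjusted p under 0.05, 3 were higher and 0 lower, beside 11.3% and 10.6% of all genes, and the same 3 exceeded a fold of 1.5, beside 8.78%. The comparisons at the 2 times and the interaction share samples, so that a low value in cKO at 0 h enters both the 0 h comparison and the interaction. The 3 genes passed with an intensity trend, and Relb and Nfkbiz with quantile normalization. The ratio of Relb to Rel was 0.951 and 0.956 in WT against 0.848 and 0.930 in cKO at 4 h. The ratio of Nfkbie to Nfkbia was 0.124 and 0.136 in WT against 0.135 and 0.141 in cKO at 4 h. Both cKO samples were thus below both WT samples at 4 h for Relb to Rel, as for Nfkbiz to Nfkbia, with smaller gaps than at 0 h, while for Nfkbie to Nfkbia the samples of the genotypes overlapped.

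The 3′UTRs of the members were read from GENCODE M21, with the longest annotated one for each gene, because Nudt21 acts through UGUA. All 10 held UGUA, as did 88.2% of 13517 genes tested. The median number was 3, against 5 over all genes, and the median density 5.03 per kilobase, against 5.04. Rel had by far the longest, with 5418 bases, and the most UGUA, 35 (both at the 97.0 percentile). By number of UGUA it was followed by Nfkbiz with 14 in 1355 bases and Nfkbia with 7 in 512 bases. Nfkbie (1102 bases), Relb (336 bases) and Nfkbib (763 bases) held 1 UGUA each. The 3 genes that were lowest in cKO at 0 h relative to WT thus held 1, 1 and 14 UGUA, and the only one that was higher in both cKO samples held 35, and no relation between motif and change was tested. The AU-rich motif UAUUUAU was found 2 times in Rel and 2 times in Nfkbia and in no other member, compared with 29.0% of all genes.

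The other genes of the pathway were followed in the same fit. Of 30 textbook NF-κB targets, 30 rose with stimulation in WT and 30 in cKO, beside 31.6% and 30.5% of all genes. Over the alternatives 29 or 30 rose, and up to 1 was lower in cKO. Their median log2 fold changes were 8.72 in WT and 9.35 in cKO. Between the genotypes 4 of the 30 (beside 8.82% of all genes) were higher and 2 (beside 8.35%) lower in cKO at 4 h, among them Csf2, a growth factor of macrophages, at 2.83 (standard error 0.19), the monocyte chemokine Ccl2 at 1.76 (standard error 0.19) and the cytokine Il1b at -1.31 (standard error 0.27). The median of the 30 was 0.04. At 0 h Ccl2 was higher (2.71, standard error 0.19) and the interferon-induced chemokine Cxcl10 lower (-1.97, standard error 0.28), 1 gene each way beside 2.87% and 2.55% of all genes, and these counts ran from 0 to 2 each over the alternatives and from 1 to 2 and 0 to 1 with 1 sample left out. Ccl2 was thus called in cKO at both times, and the 24 targets not called at 4 h include Tnf (-0.01, standard error 0.25).

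Of the 11 IκB kinase subunits and upstream kinases, 7 rose and 2 fell in WT with stimulation, beside 31.6% and 29% of all genes, and 6 rose and 1 fell in cKO, beside 30.5% and 27.8%, while over the alternatives 4 to 8 rose and 1 to 5 fell in WT and 5 to 8 rose and 1 to 6 fell in cKO. At 4 h 1 was higher and 4 were lower in cKO, beside 8.82% and 8.35% of all genes, and the 4 lower became 0 to 6 over the alternatives and 0 to 2 with 1 sample left out, while the 1 higher became 0 to 1 in both. Tab1, an adaptor of the kinase TAK1, was lower at -1.17 (standard error 0.28), Ikbkg, the regulatory subunit NEMO, higher at 1.16 (standard error 0.11) and Map3k8, the kinase Tpl2 that p105 binds, lower at -0.64 (standard error 0.13). The other lower genes were Chuk, the kinase IKKα, at -0.59 (standard error 0.07, adjusted p = 0.0124, limma with Benjamini-Hochberg adjustment) and Ikbke at -0.49 (standard error 0.11). Ikbkg was also higher at 0 h (0.66, standard error 0.11), the 1 gene of this list called there, and with any 1 sample left out 0 were. All 11 ubiquitin adaptors rose with stimulation in both genotypes with median-ratio scaling, beside 31.6% of all genes in WT and 30.5% in cKO. At least 8 rose under the alternatives, some of which had up to 2 lower in WT. Of these adaptors 0 were higher and 1 lower in cKO at 4 h (Birc2, -0.61), beside 8.82% and 8.35% of all genes. At 0 h 1 adaptor was higher (Traf3, which restrains the non-canonical branch, at 1.30) and 1 lower (Rbck1 at -0.45). These stand beside 2.87% and 2.55% of all genes. At 0 h the higher adaptors ran from 0 to 2 over the alternatives and 0 to 1 with 1 sample left out, and the lower from 0 to 1 over the alternatives, with 0 whichever sample was left out. Of 12 negative regulators, 8 rose and 1 fell in WT (beside 31.6% and 29% of all genes) and 9 rose and 1 fell in cKO (beside 30.5% and 27.8%, and at least 6 and 4 rose and at most 4 and 4 fell over the alternatives), the largest rise being that of Tnfaip3 (A20, 6.58 in WT). At 4 h 1 was higher in cKO (Otud7b, 1.07) and 2 lower (Tnip2, -0.54, and Otulin, -0.34), beside 8.82% and 8.35% of all genes, and at 0 h 0 were called by limma, with 2 higher and 1 lower at an unadjusted p under 0.05, beside 10.6% and 11.8% of all genes, and 0 to 2 higher and 0 to 1 lower were called over the alternatives and 0 to 1 higher with 1 sample left out. A list of 6 IκB-like genes and IκB-binding small GTPases includes Nfkbiz and Bcl3. With stimulation it had 5 higher and 0 lower in WT, beside 31.6% and 29% of all genes. In cKO 5 were higher and 1 lower, beside 30.5% and 27.8% of all genes. Over the alternatives at least 3 and 4 were higher and at most 2 and 2 lower in WT and cKO. Between the genotypes this list had 0 called at either time by limma. Of all genes, 8.82% were higher and 8.35% lower at 4 h, and 2.87% and 2.55% at 0 h. At an unadjusted p under 0.05 the list had 2 higher and 1 lower at 4 h, beside 16.5% and 17.2% of all genes. At 0 h it had 0 higher and 1 lower at that threshold, beside 10.6% and 11.8% of all genes. Over the alternatives up to 2 were called higher and up to 1 lower at 4 h and up to 1 lower at 0 h, and with 1 sample left out up to 1 lower at 0 h. Its gene closest to the members, Nfkbid (IκBNS), rose by 2.99 in WT and 3.96 in cKO (standard error 0.26 each), and its genotype difference at 4 h was 0.77 (adjusted p = 0.106, limma with Benjamini-Hochberg adjustment). The counts between genotypes depended on the settings: those of the targets at 4 h ran from 1 to 8 higher and from 0 to 4 lower over the 9 alternatives, and from 1 to 5 higher and from 1 to 5 lower with 1 sample left out. At 4 h the lower ubiquitin adaptors ran from 0 to 3 and 0 to 2, the higher ones, 0 with median-ratio scaling, from 0 to 3 over the alternatives, the lower negative regulators from 0 to 3 and 0 to 1, and the higher negative regulators from 0 to 1 in both.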

How the data were processed

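RNA-seq of 8 BMDM samples was analysed from 2 tables of gene values, 1 for each time. The authors aligned paired-end reads to GRCm38 (mm10) with HISAT2 2.2.1 and quantified RefSeq genes with StringTie 2.1.7, the versions being those of the submitters' processing notes, and deposited 1 coverage signal per gene symbol and sample with no scaling between samples. Coverage is the mean number of reads over each base. The tables do not name the unit, which was read from the values, and the number of reads behind a value is not known, so no counting interval is given. They also hold the authors' fold changes, p-values and classes, which were not used. All per-sample columns entered the analysis (0 unused).

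Groups followed the labels, which give IFNγ/LPS for the 0 h samples too; their titles were followed. Samples were divided by median-ratio factors and compared with limma (3.58.1, R 4.3.3) as log2 values with a pseudocount of 0.1, for genes whose mean coverage reached 0.5, in 1 fit of 4 group means with 4 residual degrees of freedom. A fold change is on that log2(value + pseudocount) scale. Genes were called at a Benjamini-Hochberg adjusted p under 0.05 over all genes, and a fold change above 1.5 with an unadjusted p under 0.05 was counted beside it. Samples pooled mice, and p-values measure the spread between these samples. The fit was tested on simulated data with no stimulation effect and no shift that differs with coverage. That test does not cover the scaling between the times. Stranded counting is not stated in the sources used here, so reads of overlapping opposite-strand genes may not be told apart.

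The members, gene lists and markers were chosen with earlier results of these data known. The text names the 10 members, Nudt21, Nfkbid and, of each list, up to 3 called genes with the largest change; other genes named were chosen after their values were seen. Alternatives covered scaling, pseudocount, filter, variance, samples in the fit, replicate block and each sample left out. Scaling on genes reaching a mean coverage of 1000 was added after seeing the data. Positions and 3′UTRs came from GENCODE M21, promoters from RefSeq. Alternative polyadenylation was not analysed here, and the study reports shorter 3′UTRs in cKO for many genes. The part of such shortening in the genotype comparisons, shares and ratios of coverage per base was not tested.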

Additional observations from a re-analysis of the deposited data

Results flagged for a closer look

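Nfkb2, the gene of p100 and p52, lay on opposite sides at the 2 times: on the scaled coverage both cKO samples were below either WT sample at 0 h (log2 fold change -0.16, standard error 0.13) and above them at 4 h (0.15, standard error 0.13). The difference of 0.31 did not pass the interaction test (95% interval -0.15 to 0.77, adjusted p = 0.382, limma with Benjamini-Hochberg adjustment). On the deposited coverage the samples of the genotypes overlapped at 0 h, with 903 and 986 in WT and 845 and 993 in cKO.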

How the results depend on the processing

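All 10 members were called higher with stimulation in both genotypes under each of the 10 alternatives and with each sample left out. Of the genotype effect at 0 h, 0 members were called lower with median-ratio scaling and 3 (Relb, Nfkbie and Nfkbiz) with equal total coverage, quantile normalization, a pseudocount of 1, an intensity trend and scaling on high-coverage genes. With 1 sample left out the count was 0 to 2, and the 2 (Relb and Nfkbiz) came without WT replicate 1 or without WT replicate 2 at 4 h. At 4 h 1 member (Nfkb2) was called higher on the deposited scale. Of the interaction 0 were called, 3 with an intensity trend, 2 with quantile normalization and 0 to 1 with 1 sample left out (Nfkbiz, without WT replicate 1 at 4 h). The signs of small genotype effects turned: at 4 h Nfkb1 was 0.19 on the deposited scale and 0 with quantile normalization, and at 0 h Nfkbia was -0.0187 with high-coverage genes and Nfkbib 0.064 on the deposited scale. With 1 sample left out, the effect at 4 h ranged from -0.30 to 0.0272 for Nfkb1, -0.16 to 0.20 for Rela, -0.10 to 0.21 for Relb, -0.12 to 0.37 for Nfkbia, -0.16 to 0.34 for Nfkbiz and -0.0411 to 0.20 for Bcl3. At 0 h it ranged from -0.10 to 0.13 for Nfkbia, -0.21 to 0.0803 for Nfkbib and -0.0846 to 0.19 for Bcl3, and the interaction from -0.13 to 0.36 for Nfkbia and -0.11 to 0.16 for Bcl3. The cause was not tested. Counts over all genes moved more: at 4 h 1436 genes were called higher and 1359 lower, and 178 to 3185 and 69 to 2047 under the alternatives, and at 0 h 468 and 415 became 119 to 877 and 58 to 892.

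The replicate numbers recur at both times. The deviations of same-numbered samples had a correlation of 0.05 in WT and 0.06 in cKO over 11907 genes, with 1 such value a genotype, which does not settle whether a number marks the same pool of cells at both times. With a replicate block 10 members were still called higher in each genotype, the adjusted p of the interaction was 0.227 for Nfkbie, 0.226 for Nfkbiz and 0.264 for Relb, and over all genes 18 were called higher and 10 lower in the interaction instead of 256 and 184. No paired analysis was possible because WT and cKO share no replicate numbers for the comparison of the genotypes.

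The reads behind each coverage value are not known, and with 2 samples a group the spread between samples is itself poorly determined, which limits every genotype comparison above.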
